A study of Mus musculus with 7 samples.

Results

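The genes described here are 39 genes induced by type I interferon, read in long-term haematopoietic stem cells sorted 14 days after pI:pC injection began. They were chosen as a named list out of 19649 genes in the deposited table, and all 39 were present. The labels give the strain as a CALR knock-in crossed to mice expressing MxCre. The control group was Calr +/+ MxCre (4 libraries) and the mutant group Calr fl/fl MxCre, labelled Calr del52/del52 (3 libraries). MxCre is a Cre recombinase under the Mx1 promoter, which is itself switched on by interferon, and the mice of both genotypes received pI:pC. A group without pI:pC or without MxCre was not analysed here, so every level below is a level after pI:pC and no induction could be measured. The wild-type titles are of 2 kinds, so the wild-type libraries are also given as pairs, the first pair (libraries 1 and 2) and the second pair (libraries 3 and 4). Values are in library order throughout. Nothing in the labels ties each library to its own animal, and the spread behind a p-value may thus be technical.

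Type I interferon is released when cells sense foreign nucleic acid. The synthetic double-stranded RNA pI:pC is sensed by a Toll-like receptor in endosomes and by MDA5 in the cytosol. Interferon binds the receptor IFNAR, the kinases JAK1 and TYK2 are activated, and a complex that holds STAT2 and IRF9 enters the nucleus. It binds the interferon-stimulated response element (ISRE), next to genes that encode sensors, antiviral enzymes and brakes on the signal. In the bone marrow, interferon is known to drive dormant stem cells into the cell cycle for a short time.

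The promoters were searched for the element that this gene group is known for. Of the 39 genes, 30 were matched by symbol to RefSeq promoters (GRCm38.p6), and the 250 bases before each start site were read on both strands. The ISRE core, GAAA followed by any 2 bases and GAAA again, was found in 9 of the 30 (30.0%) and in 3.46% of 27025 gene symbols. The 9 were Bst2, Gbp7, Ifit1, Ifit3, Isg15, Oas1a, Rsad2, Stat2 and Trim30a. A match of letters is not a bound site. The 150 bases before the start of 4 effector genes are shown because they carry the core in different numbers and on different strands, with the bases covered by a match in capitals.
Isg15, chr4:156200819-156200968, minus strand: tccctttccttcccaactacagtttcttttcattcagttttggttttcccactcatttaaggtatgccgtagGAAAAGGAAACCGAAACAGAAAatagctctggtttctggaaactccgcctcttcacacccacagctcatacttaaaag
Oas1a, chr5:120907526-120907675, minus strand: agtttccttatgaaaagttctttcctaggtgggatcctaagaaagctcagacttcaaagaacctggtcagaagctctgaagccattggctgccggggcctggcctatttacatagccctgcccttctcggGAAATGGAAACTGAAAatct
Ifit1, chr19:34640739-34640888, plus strand: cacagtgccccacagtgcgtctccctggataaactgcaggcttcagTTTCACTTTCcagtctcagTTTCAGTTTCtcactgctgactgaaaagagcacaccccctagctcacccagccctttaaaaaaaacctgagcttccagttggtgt
Rsad2, chr12:26456453-26456602, minus strand: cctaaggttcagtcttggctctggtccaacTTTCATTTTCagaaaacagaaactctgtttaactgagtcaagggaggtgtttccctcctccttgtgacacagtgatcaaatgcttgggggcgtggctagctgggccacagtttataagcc
Isg15 held 3 overlapping matches between -78 and -57, counted from the RefSeq start, and Oas1a held 2 overlapping matches between -20 and -5. Ifit1 held 2 separate matches on the opposite strand, at -104 to -95 and at -85 to -76, and Rsad2 held 1 on the opposite strand, at -120 to -111.

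The libraries held 21325340 to 28710304 reads, and 16047 genes, all 39 among them, passed the filter for testing. All 10 stem cell markers were in the table. Between the wild-type pairs, limma called 4 of them higher and 2 lower in the second pair, beside 45.0% of all tested genes. Their log2 differences ranged from -1.23 (Ly6a) to 2.66 (Kit). Against the second pair, 4 were called higher and 5 lower in the mutant, beside 46.8% of all tested genes. Against the first pair, 0 were called. Markers of plasmacytoid dendritic cells, strong producers of interferon, summed to between 1.15 and 2.44 CPM (counts scaled to library size) over the 7 libraries, with 3 of 7 markers in the table and Siglech not among them. The 8 neutrophil markers summed to 1664 to 1897 CPM in the first pair, 2007 to 3495 in the second pair, and 235 to 1769 in the mutant libraries. In bulk RNA, fewer cells of a type and less RNA per cell cannot be told apart.

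Levels after pI:pC were compared between genes per transcript length, as FPKM summed over the transcripts of a gene. FPKM values covered 36 of the 39 genes, and Ifit3, Mx1 and Mx2 were not analysed on that scale. Shisa5, an endoplasmic reticulum protein linked to apoptosis, had the highest mean level (313 FPKM over 7 libraries, from 237 to 415). It was followed by Lgals3bp, a secreted glycoprotein (185, from 140 to 211), Ifi27, a small mitochondrial protein (153, from 80.6 to 230) and Bst2, the virus-tethering protein tetherin (147, from 78.6 to 206). These 4 genes were above the 90th percentile of 10778 genes. The lowest Shisa5 library was above the highest library of the other 3, whose ranges overlapped one another. Ifi35, an interferon-induced leucine zipper protein, had 72.3 FPKM, the transcription factor Irf1 71.1, the nuclear body protein Sp100 65.1 and the oligoadenylate synthetase-like gene Oasl2 53.8. The ranges of these 4 overlapped as well.

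The other end of the same scale held genes of several roles. Ifit1 and Ifit2, which bind viral RNA, had mean levels of 9.10 FPKM (7.01 to 12.2) and 8.84 FPKM (5.90 to 12.04), and Rsad2, the antiviral enzyme viperin, had 8.47 FPKM (6.10 to 10.2). Ifih1, which encodes MDA5, had 7.46 FPKM (5.07 to 12.5). The 2 lowest were Oas2, an oligoadenylate synthetase that activates RNase L, at 3.56 FPKM (1.66 to 7.57) and the helicase Helz2 at 3.13 FPKM (2.202 to 4.17). Ranges of neighbours in this order overlapped. Of the 36 genes, 18 were above and 18 below the median (19.0 FPKM) of the 10778 genes on that scale. Read as normalized counts per kilobase of exon, which covered all 39, Ifit3, Mx2 and Mx1 had 42.4, 33.8 and 26.0, below the median of 66.3 over 19237 genes. Helz2 (36.7) and Parp14 (64.6) were the other members below that median, and the median of the 39 genes was 248. The FPKM median and the count median are over different sets of genes.

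**Figure D1:**
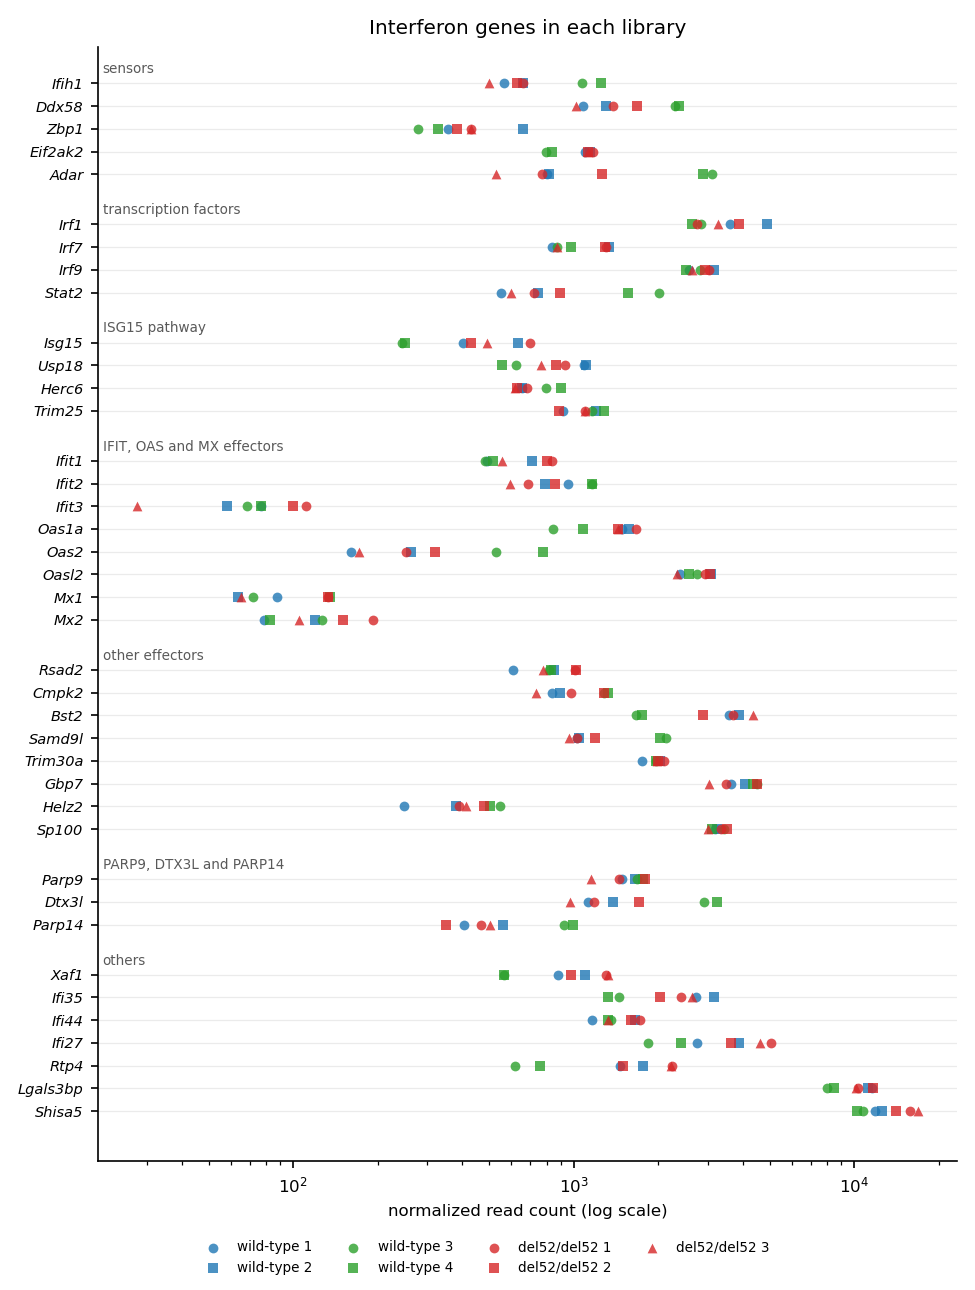
Normalized read counts (log axis) of the 39 interferon genes in each of 7 libraries, grouped by role, with 1 point per library. The second pair (green) stand apart from the other libraries for genes such as Adar, Stat2, Bst2 and Rtp4, while the mutant libraries (red) lie among the first pair (blue) for most genes.

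With all 7 libraries, none of the interferon genes passed the test for genotype. Limma called 0 of 39 and 0 of 16047 genes (0.0%) at an adjusted p of 0.05, edgeR called 0 of 39, and DESeq2 called 0 of 39 and 107 genes in all (0.667%). An unadjusted p under 0.05 was reached by 5 of 39 (8.51% of all tested genes), namely Rtp4, Ifi27, Xaf1, Shisa5 and Ifit2. The median log2 difference, mutant minus wild-type, was 0.07 over the 39 genes and 0.00 over all tested genes, and 23 genes were above 0 and 16 below (50.1% of all tested genes were above). Single genes ranged from -0.96 to 0.90. The groups did not overlap for 1 gene, Shisa5, which was higher in the mutant (5.23% of all tested genes did not overlap and were higher, 4.34% were lower).

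Shisa5 had 11915, 12600, 10758 and 10200 normalized counts across the wild-type libraries and 15875, 14091 and 16885 across the mutant ones. Every mutant library was above every wild-type library. Mean counts were 11368 ± 1088 (SD, n = 4) in wild-type and 15617 ± 1415 (SD, n = 3), a log2 difference of 0.46 (SE 0.16; limma, adjusted p = 0.538). Rtp4, a chaperone of cell surface receptors that also limits interferon signalling, had 1461, 1772, 616 and 758 counts across the wild-type libraries and 2247, 1493 and 2231 across the mutant ones. Mutant 2 was at the level of the first pair, and the second pair were lower than all the others (log2 0.90, SE 0.39). Ifi27 had 2744, 3900, 1844 and 2422 counts against 5068, 3651 and 4610 (log2 0.74, SE 0.26). Xaf1, an interferon-induced partner of the apoptosis inhibitor XIAP, had 881, 1097, 563 and 562 counts against 1309, 980 and 1329 (log2 0.68, SE 0.28). In both genes mutant 2 was below wild-type 2, so the groups overlapped. Ifit2 had 953, 791, 1164 and 1164 counts against 689, 859 and 592 (log2 -0.51, SE 0.22), with mutant 2 above wild-type 2. All 5 had an adjusted p of 0.538 in limma. All 8 neutrophil markers had negative log2 differences in the same comparison (median -2.16), and 0 of them passed (8 of 8 passed as lower with the title series, described next, as covariate). Their summed level was 1664 to 3495 CPM in wild-type, 1769 CPM in mutant 1 and 274 and 235 CPM in mutant 2 and 3. The part of these cells in the differences of the interferon genes was not tested.

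The titles of the second pair and mutant 1 and 2 carry numbers of 1 series, and those of the other 3 libraries do not. The labels do not say what this title series stands for. When limma was given it as a covariate, it called 10 of 39 genes between the genotypes, beside 22.4% of all tested genes. Bst2, Ifi27, Rtp4, Shisa5 and Xaf1 were higher in the mutant and Adar, Dtx3l, Ifih1, Ifit2 and Samd9l lower. The log2 differences were 1.04 for Rtp4, 0.81 for Ifi27, 0.78 for Xaf1, 0.49 for Shisa5 and -0.58 for Ifit2 (limma, adjusted p from 0.0258 to 0.0301). All calls with this covariate take the series to shift both genotypes alike, which was not tested. The slope of a library's log2 deviations on log2 exonic length was 0.242 and 0.244 in the second pair. In mutant 1 and 2, of the same series, it was -0.116 and 0.0104. In the first pair it was -0.0981 and -0.108, and in mutant 3 it was -0.175.

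Against the first pair alone, 0 of 39 genes passed in limma, edgeR or DESeq2, beside 50 of 16047 genes (0.312%) in limma, 24 in edgeR (0.15%) and 387 in DESeq2 (2.41%). The limma count of all genes was 0 without wild-type 1, 23 without wild-type 2, 33 without mutant 1, 595 without mutant 2 and 184 without mutant 3. The count for the interferon genes stayed at 0 in each of these fits. An unadjusted p under 0.05 was reached by 2 of 39 (11.8% of all tested genes). These were Shisa5 (log2 0.35, SE 0.14; limma, adjusted p = 0.361) and Usp18, which strips ISG15 from proteins and damps the receptor (log2 -0.37, SE 0.15; limma, adjusted p = 0.389). The median log2 difference was 0.02, and the range was -0.37 to 0.58. Every mutant library was above both wild-type libraries for Helz2 and Shisa5 and below both for Usp18 and Ifi35 (13.9% and 12.4% of all tested genes).

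Against the second pair alone, 21 of 39 genes passed in limma, 11 higher and 10 lower in the mutant, beside 46.8% of all tested genes (22.1% higher, 24.7% lower). The median log2 difference was 0.09 over the 39 genes and -0.0044 over all tested genes, and the range was -1.90 for Adar to 1.51 for Rtp4. The groups did not overlap for 14 genes that were higher and 12 that were lower (33.8% and 33.8% of all tested genes). The count was 13 without wild-type 4 and 24 without mutant 2. A total of 10 genes held their call and sign in every alternative, Isg15, Bst2, Xaf1, Ifi35, Ifi27 and Rtp4 higher and Ifih1, Adar, Stat2 and Dtx3l lower. No covariate for exonic length or for the title series was among the alternatives for this comparison.

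The wild-type pairs themselves differed for 20 of 39 genes in limma, 9 higher and 11 lower in the second pair, beside 45.0% of all tested genes (24.1% higher, 20.9% lower). The median log2 difference was 0.06, and the range was -1.23 for Rtp4 to 1.88 for Adar. The count was 13 without wild-type 2 or without wild-type 3 and 24 without mutant 2. Calls and signs held in every alternative for 9 genes, Ifih1, Adar, Stat2, Oas2 and Dtx3l higher and Usp18, Bst2, Ifi35 and Rtp4 lower. Here too, no alternative had a covariate for exonic length or for the title series. The 3 comparisons share libraries, so their values are given side by side and not as separate support.

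**Figure D2:**
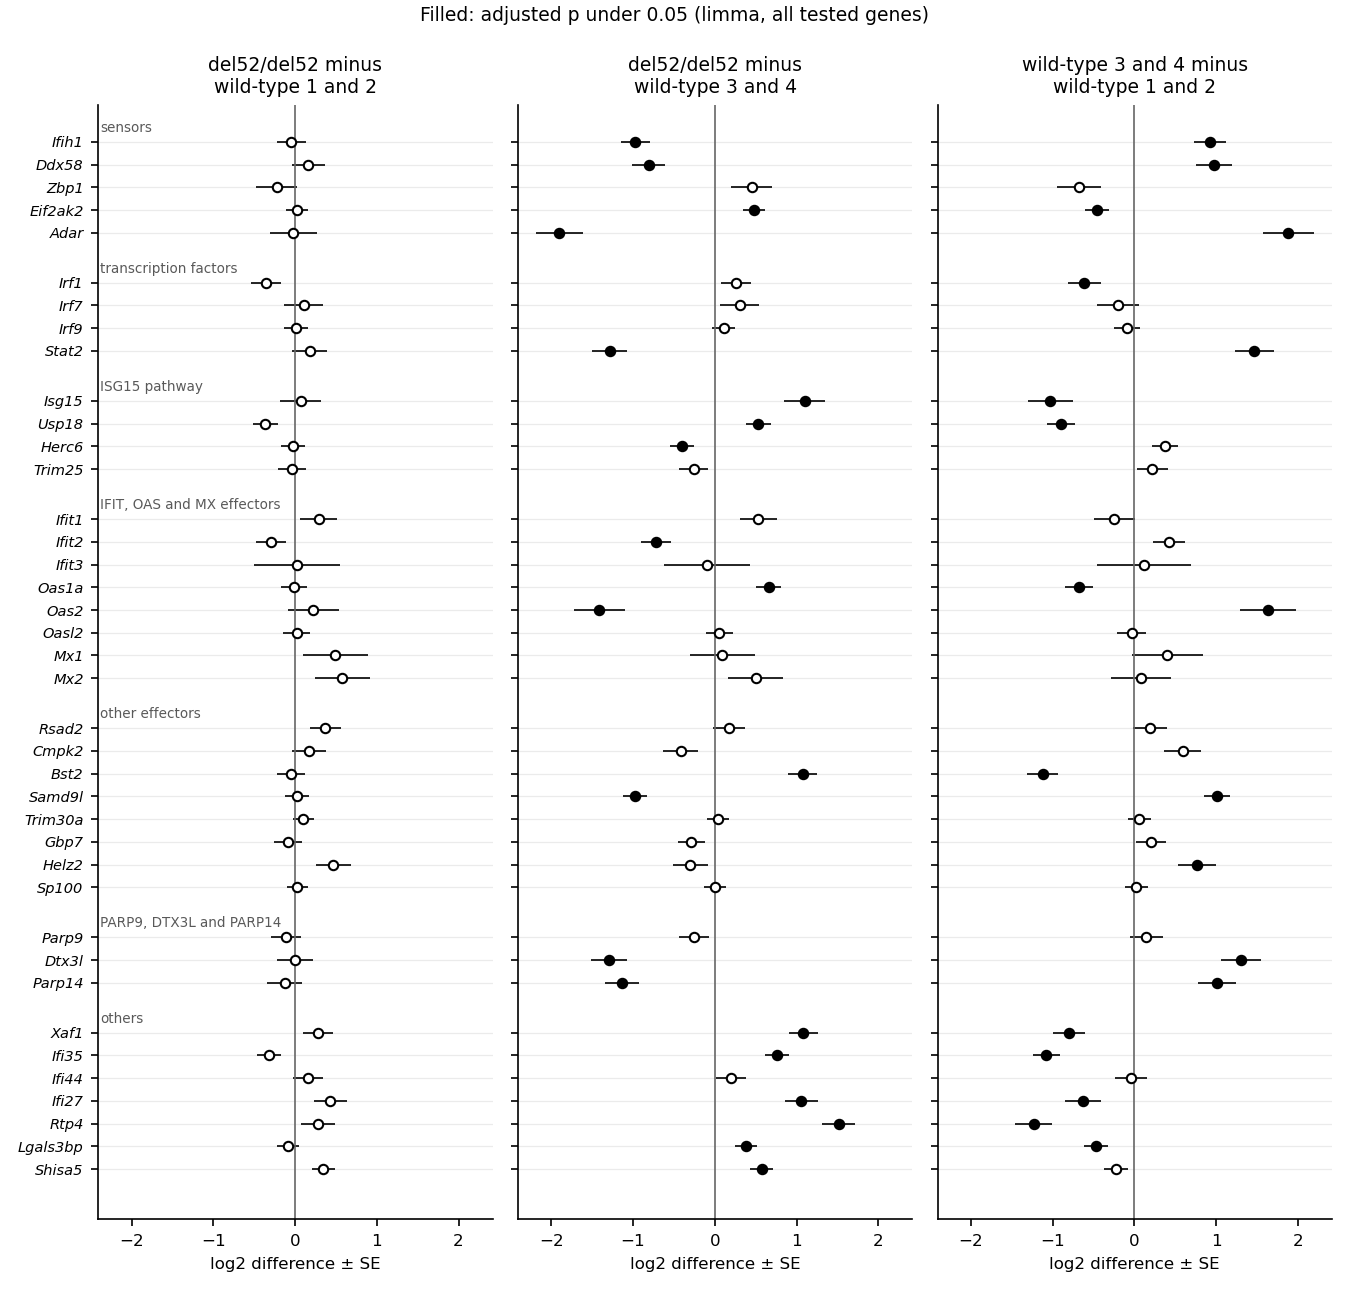
Log2 differences (mean and limma's SE) of the 39 genes for the mutant against the first pair, the mutant against the second pair, and the second pair against the first pair. Filled points passed an adjusted p of 0.05, which 0, 21 and 20 genes did.

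Among the 5 sensors, 4 passed against the second pair (46.8% of all tested genes), 1 higher and 3 lower, and 0 against the first pair. Adar encodes ADAR1, which edits adenosines in double-stranded RNA and so hides self RNA from the sensors. It had 806 and 820 counts in the first pair, 3119 and 2891 in the second pair, and 772, 1263 and 529 in the mutant libraries. The mutant libraries spanned both sides of the first pair and were below the second pair (log2 -1.90, SE 0.29; limma, adjusted p = 0.000812). Ifih1 had 564 and 661 counts, then 1072 and 1256, then 662, 626 and 499, in the same order (log2 -0.97 against the second pair). Ddx58, which encodes the RNA sensor RIG-I, had 1083 and 1305, then 2289 and 2371, then 1378, 1687 and 1016 (log2 -0.81). For both, the mutant libraries overlapped the first pair and were below the second pair. Eif2ak2, the RNA-activated kinase PKR that halts translation, had 1099 and 1148, then 798 and 837, then 1172, 1122 and 1120 (log2 0.48). Zbp1, a sensor of Z-form nucleic acids, ranged from 278 to 661 counts in wild-type and from 384 to 431 in mutant libraries. It passed in none of the comparisons in the main limma fits. Between the wild-type pairs, Zbp1 passed as lower in the second pair in DESeq2 (adjusted p = 0.0235). It also did in limma after quantile normalization (adjusted p = 0.0116) and on FPKM (adjusted p = 0.0153).

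Of the 4 transcription factors, Stat2 passed against the second pair. It had 551 and 745 counts in the first pair, 2013 and 1562 in the second pair, and 719, 895 and 596 in the mutant libraries (log2 -1.29, SE 0.21; limma, adjusted p = 0.00136). For its partner Irf9, wild-type libraries held 2511 to 3165 counts and mutant libraries 2649 to 3045. Irf7, which amplifies interferon production, had 839, 1341, 871 and 977 counts across the wild-type libraries and 1306, 1297 and 874 across the mutant ones. The wild-type range of Irf7 covered all 3 mutant libraries. Irf1 had 3599, 4888, 2846 and 2637 counts against 2751, 3899 and 3270 and was lower in the second pair than in the first pair (log2 -0.61, SE 0.20; limma, adjusted p = 0.0292). The call for Irf1 was lost in 3 alternatives.

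In the ISG15 pathway, Isg15 itself encodes a ubiquitin-like protein joined to other proteins. It had 404 and 631 counts in the first pair, 244 and 249 in the second pair, and 701, 432 and 492 in the mutant libraries. The mutant values overlapped the first pair and were above the second pair (log2 1.10, SE 0.25; limma, adjusted p = 0.00554). Usp18 had 1089 and 1111, then 625 and 555, then 934, 866 and 767, so the mutant libraries lay between the wild-type pairs (log2 0.53 against the second pair). Herc6, the main ISG15 ligase of the mouse, had 654 and 653, then 799 and 901, then 680, 630 and 617 (log2 -0.40; limma, adjusted p = 0.048). The call for Herc6 was lost in 9 alternatives, among them each wild-type library left out. Trim25, a ubiquitin ligase that activates RIG-I, was between 884 and 1286 counts in all libraries.

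The IFIT, OAS and MX effectors gave 3 calls of 8 against the second pair, beside 46.8% of all tested genes. Oas1a was higher in the mutant, with 1481 and 1570 counts in the first pair, 847 and 1077 in the second pair, and 1668, 1440 and 1433 in the mutant libraries (log2 0.66). Oas2 was lower, with 161 and 264, then 527 and 780, then 252, 320 and 172 (log2 -1.41, SE 0.31), and Ifit2 was lower too (log2 -0.72, SE 0.18). These 3 genes passed at adjusted p from 0.00459 to 0.00896 in limma. Ifit1 had 491, 710, 481 and 515 counts across the wild-type libraries and 838, 805 and 556 across the mutant ones, with mutant 3 below wild-type 2. Against the second pair, Ifit1 passed in DESeq2 (adjusted p = 0.0374) and after quantile normalization (limma, adjusted p = 0.00829), though not in the main limma fit. Ifit3 had 76.5, 58.2, 68.4 and 76.5 counts against 111, 100.01 and 27.8, so mutant 3 was below and mutant 1 and 2 above all wild-type libraries. Mx1, whose promoter drives Cre in these mice, had 87.4, 63.4, 71.7 and 135.5 counts against 133.5, 133.1 and 65.3. Mx2 had 78.7, 119.5, 126.8 and 82.3 against 193, 151 and 105, and Oasl2 ranged from 2344 to 3095 counts over all libraries. Mx1 and Mx2 belong to a family of GTPases that block viral replication, and Mx2 is annotated as a polymorphic pseudogene. Mx1 and Mx2 had log2 differences of 0.49 (SE 0.40) and 0.58 (SE 0.34) against the first pair, without passing. Ifit1, Ifit2 and Ifit3 lie side by side on chromosome 19 (34550694 to 34650009). Ifit3 and its near-identical copy Ifit3b (12.5 to 35.7 counts), and Oas1a and its copies, may have shared reads, so their values are uncertain.

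Of the 8 other effectors, Bst2 was higher and Samd9l lower than in the second pair. Bst2 had 3566 and 3890 counts in the first pair, 1665 and 1751 in the second pair, and 3701, 2890 and 4342 in the mutant libraries (log2 1.07, SE 0.17; limma, adjusted p = 0.00116). Samd9l, a brake on translation and cell growth that is often altered in inherited marrow failure, had 1028 and 1043, then 2140 and 2026, then 1025, 1189 and 963 (log2 -0.98, SE 0.14). In both, the mutant values spanned those of the first pair. The call for Samd9l was lost on summed FPKM, against the second pair (log2 -0.24; limma, adjusted p = 0.319) and between the wild-type pairs (log2 0.15). Rsad2 and its neighbour Cmpk2, a mitochondrial nucleotide kinase, lie side by side on chromosome 12. Rsad2 had 609, 850, 818 and 827 counts across the wild-type libraries and 1012, 1021 and 775 across the mutant ones, and Cmpk2 had 840, 890, 1280 and 1324 against 978, 1283 and 735. Both groups overlapped for both genes. Trim30a, a regulator of inflammatory signalling, was at 1751 to 2091 counts in all libraries, Sp100 at 3004 to 3508 and Gbp7, a guanylate-binding protein, at 3044 to 4506. Helz2, a coactivator of nuclear receptors, was higher in the second pair (546 and 503 counts) than in the first pair (249 and 379), with a log2 difference of 0.77 (SE 0.23; limma, adjusted p = 0.0212). The call for Helz2 was lost in 5 alternatives, among them quantile normalization (log2 0.40) and summed FPKM (log2 0.16).

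PARP9 and DTX3L form a ubiquitin ligase that supports interferon signalling, and PARP14 attaches ADP-ribose to proteins. Dtx3l had 1127 and 1375 counts in the first pair, 2906 and 3245 in the second pair, and 1181, 1706 and 967 in the mutant libraries (log2 -1.30 against the second pair, SE 0.22; limma, adjusted p = 0.00149). Its partner Parp9 had 1488 and 1648, then 1687 and 1770, then 1454, 1798 and 1152, and passed in none of the comparisons. Dtx3l and Parp9 overlap on chromosome 16 on opposite strands (35938470 to 35939151), and the libraries were unstranded, so reads from the overlap cannot be told apart. Parp14 had 406 and 559, then 926 and 995, then 469, 349 and 505 (log2 -1.14, SE 0.21). The sign for Parp14 turned with the table used, since summed FPKM gave a log2 difference of 0.42 for the same comparison.

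The remaining 7 genes, of mixed function, gave 6 calls against the second pair, each of them higher in the mutant (22.1% of all tested genes were called higher). Rtp4 had the largest positive log2 difference of the 39 (1.51, SE 0.20; limma, adjusted p = 0.000443). Xaf1 (1.09, SE 0.18), Ifi27 (1.06, SE 0.20), Ifi35 (0.76, SE 0.15), Shisa5 (0.57, SE 0.14) and Lgals3bp (0.38, SE 0.13) followed. Ifi35 had 2720 and 3155 counts in the first pair, 1446 and 1327 in the second pair, and 2404, 2040 and 2640 in the mutant libraries, which lay between the wild-type pairs. Lgals3bp had 11621 and 11165, then 7970 and 8448, then 10330, 11716 and 10131. The call for Lgals3bp was lost in 6 alternatives and that for Shisa5 in 2. Ifi44, a cytosolic interferon-induced protein, had 1162, 1648, 1356 and 1328 against 1719, 1605 and 1327, with overlap in every comparison. Ifi27 belongs to a family of close copies on chromosome 12, which may have shared reads.

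The differences that involved the second pair varied with exonic length. That pair also had the most reads (28710304 and 28537617, against 21325340 to 27083569 in the other libraries) and the lowest mitochondrial share of counts (0.363% and 0.412%, against 0.681% to 1.17%). The part of depth and of mitochondrial share in these differences was not tested. The 39 genes had exonic lengths from 756 bases (Isg15) to 11529 bases (Helz2), with a median of 4335, against 3787 over the tested genes. Between the wild-type pairs, Spearman's rho of the log2 difference with exonic length was 0.71 over the 39 genes and 0.51 over 15770 genes. For the mutant minus the second pair it was -0.74 and -0.52, for the mutant minus the first pair -0.03 and 0.03, and for the mutant minus all wild-type libraries -0.67 and -0.44. These are descriptions across genes, which share libraries and are not independent replicates. Isg15 and Bst2, the shortest members, were lower in the second pair, and long members such as Adar and Ifih1 were higher there. Not all members followed: between the wild-type pairs, Ifit3 (1745 bases) had a log2 difference of 0.12 and Xaf1 (4689 bases) one of -0.80.

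The members were then read against genes of similar length, as a description. The tested genes were split by length into 10 equal classes, and the median log2 difference of the class was subtracted from each member. For the mutant minus the second pair, the median of the 39 genes became 0.23, with 28 above 0 and 11 below. Rtp4 stood at 1.09 and Xaf1 at 1.46 above their classes, Isg15 at 0.26 and Bst2 at 0.23, and Adar at -1.30 and Oas2 at -1.25. Isg15 and Bst2 thus stood nearer to the median of their classes than Xaf1, Rtp4, Adar and Oas2 did. For the mutant minus the first pair the median was 0.01, with 21 above 0 and 18 below. With the length slope of each library as a covariate, limma called 127 genes between the genotypes (0.791%) and 0 of the 39, and the difference of Bst2 went from 0.51 to -0.02.

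**Figure D3:**
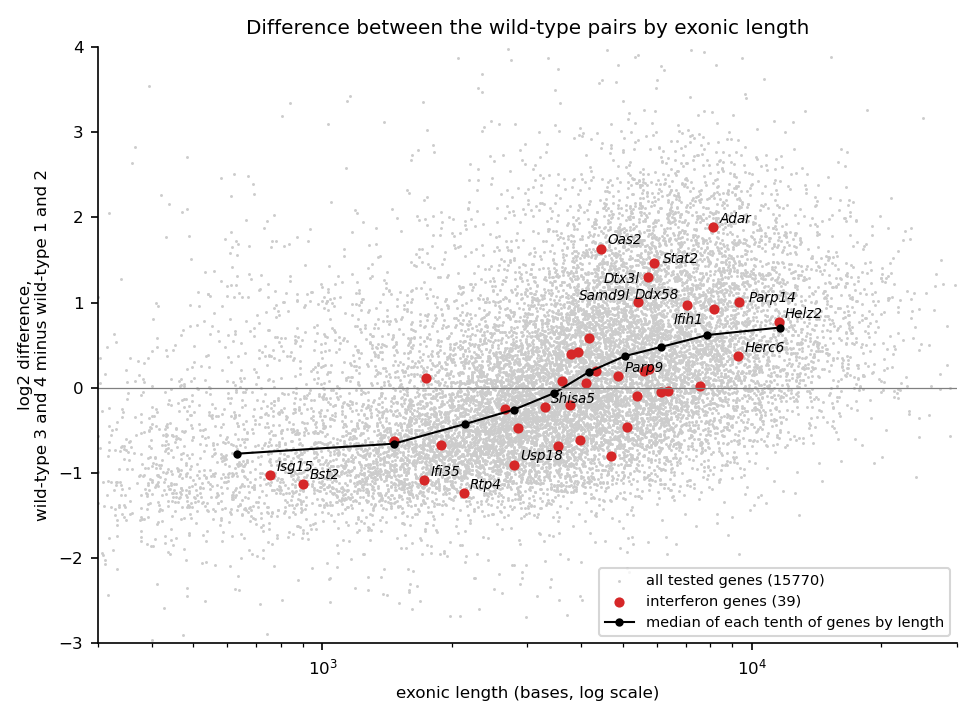
Log2 difference between the wild-type pairs (the second pair minus the first pair) against exonic length (log axis), for all tested genes (grey, 244 of 15770 lie outside the axes) and the 39 interferon genes (red). The black line joins the medians of 10 length classes, and most short members lie below 0 and most long members above.

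Libraries of 1 group also differed in these genes. Wild-type 2 was above wild-type 1 in 34 of 39 genes, with a median log2 difference of 0.27, while 46.6% of all tested genes were above (median -0.02). Wild-type 4 was above wild-type 3 in 23 of 39 genes (48.0% of all tested genes). In the mutant group, mutant 1 was above mutant 3 in 31 of 39 genes (median 0.22) and mutant 2 above mutant 3 in 29 of 39 (median 0.25), beside 50.4% and 50.6% of all tested genes. The 8 IFIT, OAS and MX effectors were each lower in mutant 3 than in mutant 1 and 2, with medians of 0.57 and 0.53. Ifit3 (27.8 against 111 and 100.01 counts) and Mx1 (65.3 against 133.5 and 133.1) showed the pattern. Of the 7 genes of mixed function, 4 were higher in mutant 1 than in mutant 3 (median 0.01). Only 2 of those 7 were higher in mutant 2 than in mutant 3 (median -0.34). Summed over the 39 genes, the level was 2867 and 3363 CPM in the first pair, 2981 and 3021 in the second pair, and 3322, 3312 and 2960 in mutant 1 to 3. The sums of the genotypes overlapped, and the difference between mutant 3 and the other mutant libraries has no replicate check.

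**Figure D4:**
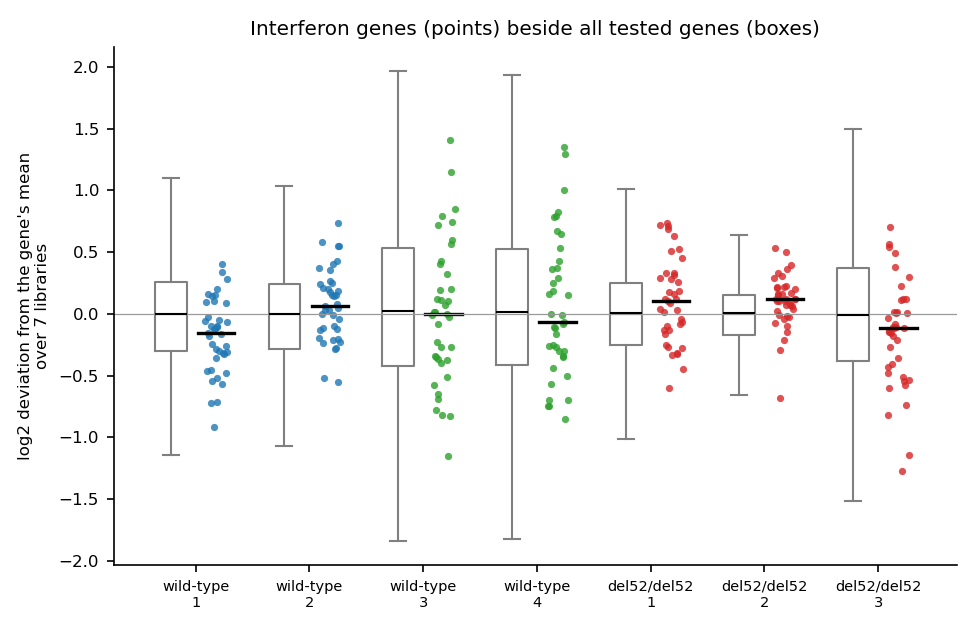
Log2 deviation of each gene from its mean over 7 libraries, for the 39 interferon genes (points, with a black bar at their median) and all tested genes (boxes from the first to the third quartile, with whiskers to the farthest gene within 1.5 box lengths). The medians of the 39 genes were -0.15 in wild-type 1 and -0.12 in mutant 3 and between -0.07 and 0.12 in the other 5 libraries.

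The rest of the pathway was read from lists of its parts. None of 10 interferon ligand genes, such as Ifnb1, Ifna4 and Ifng, was in the table, which holds genes with reads in at least 4 libraries. Of 11 receptors and kinases, 10 were in the table, and 0 passed between the genotypes or against the first pair. Against the second pair, 1 passed as higher (Ifnar2, log2 0.36) and 5 as lower, among them Tyk2 (log2 -1.88, SE 0.23) and Jak1 (log2 -0.97, SE 0.15), beside 46.8% of all tested genes. The call for Ifnar2 was lost in 6 alternatives, each with 1 library left out. With the title series as covariate, Jak2 and Tyk2 were called lower between the genotypes (22.4% of all tested genes were called). Every mutant library was above every wild-type library for Ifnar2, a subunit of the receptor (5.23% of all tested genes). Ifnar2 had 2712, 2823, 2269 and 2457 counts in wild-type and 3064, 2898 and 3159 in mutant libraries.

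Of 16 adaptors of RNA and DNA sensing, 13 were in the table and 0 passed between the genotypes. Against the second pair, 3 were higher (Tmem173, Irf3 and Myd88) and 1 was lower (the kinase gene Ikbke, log2 -1.29), beside 46.8% of all tested genes. The call for Myd88 was lost in 6 alternatives, that for Irf3 in 2 and that for Tmem173 in 1. Between the genotypes, the title series as covariate gave 2 calls of 13, Tmem173 higher and Ikbke lower, beside 22.4% of all tested genes. Without it, the groups did not overlap for 3 of the 13 that were higher and 1 that was lower (5.23% and 4.34% of all tested genes). Tmem173, which encodes the DNA-sensing adaptor STING, had 2369, 2512, 2050 and 2251 counts across the wild-type libraries and 3515, 2915 and 3624 across the mutant ones. Every mutant library was above every wild-type library (log2 0.64 against the second pair, SE 0.14; limma, adjusted p = 0.0051). Against the first pair the log2 difference was 0.45 (SE 0.14; limma, adjusted p = 0.247). The value passed without mutant 2, at 0.55 (limma, adjusted p = 0.0284). It did not pass without mutant 1 or without mutant 3 (limma, adjusted p = 0.609 and 0.193). DESeq2 (adjusted p = 0.121) and edgeR (adjusted p = 0.268) did not call it either.

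The 12 feedback regulators gave 0 calls between the genotypes and 8 against the second pair, 4 in each direction (46.8% of all tested genes). The genes described below were all among the lower ones. With the title series as covariate, 4 of 12 were called between the genotypes, 2 in each direction, beside 22.4% of all tested genes. Socs3, an inhibitor of JAK kinases, had 151 and 371 counts in the first pair, 5350 and 7661 in the second pair, and 1007, 3386 and 697 in the mutant libraries (log2 -2.26, SE 0.57, against the second pair; the call was lost in DESeq2 and without wild-type 4). Tnfaip3, which encodes the inflammatory brake A20, had 151 and 156, then 1949 and 2991, then 232, 671 and 137 (log2 -3.12, SE 0.51). The second pair were the highest libraries for both. Nlrc5, an activator of MHC class I genes, had 653 and 1225, then 3310 and 2697, then 599, 610 and 617 (log2 -2.29, SE 0.23). Its groups did not overlap, with the mutant libraries lowest (log2 -1.42 over all wild-type libraries; limma, adjusted p = 0.538). With the title series as covariate it passed (log2 -1.596; limma, adjusted p = 0.0258).

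A list of 41 further interferon-stimulated genes, of which 39 were tested, gave 0 calls between the genotypes or against the first pair. It gave 20 against the second pair, 9 higher and 11 lower, with a median log2 difference of 0.03. Between the wild-type pairs it gave 16, 8 in each direction. With the title series as covariate, 12 of 39 were called between the genotypes, 3 higher and 9 lower, beside 22.4% of all tested genes. Oas3, the largest oligoadenylate synthetase, had 97.2 and 188 counts in the first pair, 677 and 801 in the second pair, and 206, 184 and 82.2 in the mutant libraries (log2 -2.32, SE 0.40). Znfx1, a helicase that senses RNA, had 253 and 199, then 898 and 763, then 169, 183 and 201 (log2 -2.16, SE 0.20). Between the genotypes, Znfx1 passed with the title series as covariate (log2 -1.40; limma, adjusted p = 0.0317). Ly6e, a membrane protein that acts on virus entry, was higher (log2 0.92, SE 0.16), as was Epsti1 (log2 0.85, SE 0.13). Of all tested genes, 46.8% passed against the second pair and 45.0% between the wild-type pairs.

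Transcripts of the 39 genes were compared by FPKM. Of 196 such transcripts in the table, 101 were tested, and 0 passed between the genotypes or against the first pair (0.0% and 0.00995% of all tested transcripts). Against the second pair, 22 were higher and 12 lower, beside 16.2% and 12.4% of 30156 tested transcripts. Shisa5-216 had 18.3 and 22.6 FPKM in the first pair, 0.18 and 0.0048 in the second pair, and 11.4, 16.3 and 26.7 in the mutant libraries (log2 of FPKM + 1 4.05, SE 0.32; limma, adjusted p = 0.0028). The main form Shisa5-201, with 66.1% of the gene's FPKM, had 179 and 200, then 171 and 171, then 242, 222 and 267. Its log2 difference against the second pair was 0.50 (limma, adjusted p = 0.0382). That call was lost in 7 alternatives, which were no filter and leaving out any 1 library other than mutant 2. The count of calls rests on both libraries of that pair, since all transcripts called in this comparison numbered 8622 with both, 22 without wild-type 3 and 166 without wild-type 4.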

How the data were processed

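RNA of sorted long-term haematopoietic stem cells was amplified with SMART-Seq v4 and made into unstranded libraries, per the labels' protocols. The authors deposited a table of gene counts divided by a size factor (a signal, called normalized count here) and a table of transcript FPKM. The submitters' processing notes name STAR 2.7.3a, HTSeq 0.6.1, DESeq2 1.12.4, Cufflinks 2.2.1 and GRCm38, without their roles. Each deposited column matched 1 sample, and 0 columns were left without one.

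Genes with at least 10 normalized counts in at least 3 libraries were tested on log2(normalized count + 1) with limma 3.58.1 (R 4.3.3), with trend and Benjamini-Hochberg adjustment at 0.05. On this scale the change of low genes is understated. One fit held 2 groups (mutant and wild-type) and one held 3, with the wild-type pairs apart. Whole reads were recovered for 100.0% of values (tolerance 0.01 reads) and were tested with edgeR 4.0.16 and DESeq2 1.42.0 as alternatives. Transcripts were tested on log2(FPKM + 1). Lengths came from GENCODE vM21. The limma tests were checked on simulated reads that held no difference between the wild-type pairs and no length trend. That check says nothing on how the tests behave with such differences.

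The interferon genes and all lists were chosen with earlier results of these data known. All 39 interferon genes are named. From other lists, the genes open to naming were those called in any of the 4 contrasts, at most 3 per direction and contrast by smallest p. Where none was called, they were the 3 of smallest p between the genotypes. Not all of these genes are described, and some lists of cell type and interferon-gamma genes are left out. Alternatives varied the pseudocount, the filter, the scaling, the test, the table and the libraries. A result of the receptor and kinase list is not reported here.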

Additional observations from a re-analysis of the deposited data

Results flagged for a closer look

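In the wild-type group of 4 libraries, 2 of the 39 genes had a library far from the other 3 by Dixon's criterion. Ifit1 had 709.6 normalized counts in wild-type 2, above the others, with a gap of 0.854 of the range. Rsad2 had 608.5 in wild-type 1, below the others, with a gap of 0.87 of the range. Chance alone flags about 1 in 20 such groups.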

How the results depend on the processing

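The design has 3 or 4 libraries a group, and limits of depth did not decide which of the 39 genes were tested. No paired analysis was possible because the labels give the groups no shared replicate numbers. Genes called between the genotypes numbered 0 in limma, 107 in DESeq2, 127 with each library's length slope added and 3597 with the title series, which called 10 of the 39. Against the first pair, genes called numbered 50 in limma, 30 after quantile normalization, 24 in edgeR, 387 in DESeq2, 6 on FPKM and 0 to 595 with 1 library left out. Against the second pair, leaving out 1 library gave 4348 to 8969 genes, 13 to 24 of the 39 and a median log2 difference of 0.0175 to 0.2574, and FPKM gave a median of 0.2078. Between the wild-type pairs it gave 4342 to 8513 genes and 13 to 24 of the 39, and FPKM gave a median of -0.13. Without the filter, transcripts called numbered 3, 66, 5688 and 5431 in the 4 comparisons, taken in the order above, and with 1 library left out 0 to 1, 0 to 9, 22 to 11611 and 195 to 10758. Signs turned for Bst2 between the genotypes with the length slope (-0.0176), and on FPKM for Parp14 against the second pair (0.4213) and for Herc6 (-0.158) and Parp14 (-0.5402) between the wild-type pairs. The cause was not tested. Of the 39 genes, 10 of 21 calls against the second pair and 9 of 20 between the wild-type pairs held in all alternatives. The alternatives for those comparisons did not include the length slope or the title series as covariate.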

Other observations

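The GBP and IRG GTPases, which act on membranes around intracellular microbes and respond to interferon gamma as well as to type I interferon, were a separate list of 14 genes. Against the first pair, limma called 0 of 14 (0.312% of all tested genes), 6 had an unadjusted p under 0.05 (11.8% of all tested genes), and the median log2 difference was -0.37. The mutant libraries lay below both wild-type libraries for 5 genes and above both for 1 (12.4% and 13.9% of all tested genes). Against the second pair the median was 0.30, and 3 of 14 were called higher and 0 lower (22.1% and 24.7% of all tested genes). Over all wild-type libraries the median was -0.07, and limma called 0 (0.0% of all tested genes). With the title series as covariate it also called 0 of 14 (22.4% of all tested genes). Ifi47 had 8570 and 8948 normalized counts in the first pair, 3928 and 3460 in the second pair, and 5191, 5372 and 6074 in the mutant libraries. Tgtp2 had 3470 and 4985, then 1592 and 1346, then 1955, 2228 and 2496. For both genes the mutant libraries lay between the wild-type pairs. Against the first pair the log2 differences were -0.66 for Ifi47 and -0.91 for Tgtp2 (limma, adjusted p = 0.0818 and 0.0779). DESeq2 called both (adjusted p = 0.0015 and 0.000889), and edgeR called neither (adjusted p = 0.104 and 0.0891). Over the alternatives in limma, Ifi47 passed without mutant 2 (adjusted p = 0.0198) and without mutant 3 (0.025), and Tgtp2 did too (0.0175 and 0.03). Neither gene passed without mutant 1 (limma, adjusted p = 0.29 and 0.249). Without wild-type 1 the adjusted p was 0.483 for Ifi47 and 0.293 for Tgtp2. Between the wild-type pairs, 6 of the 14 were lower in the second pair and 0 were higher, beside 20.9% and 24.1% of all tested genes. Tgtp2 has a near-identical copy, so its counts are uncertain.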
